A study of Mus musculus with 96 samples.

Results

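The genes described here mark B cells and the MHC class II route of antigen presentation, and their 9 members are *Cd79a*, *Cd79b*, *Cd22*, *Ms4a1*, *Blk*, *Cd74*, *H2-Aa*, *H2-Ab1*, and *H2-Eb1*. They were found by symbol among the 41575 gene symbols of the count table. Of the 9 members, 6 had at least 1 count, and 3 were at 0 in every library. The table holds bulk RNA sequencing of 96 MuSeq libraries, a method in which each RNA sample is barcoded during reverse transcription and then pooled. The libraries came from 16 tissues of wild-type mice and of mice lacking the tendon transcription factor scleraxis (*Scx-/-*), all 3 weeks old, with 3 libraries per tissue and genotype. The sources give neither the strain nor the sex of the mice, and they do not say which libraries share a mouse, so *p*-values measure the spread between libraries. Depth ranged from 11244 to 1658192 counts per library (median 251640), and the 6 spleen libraries held 181627 to 467090. Levels are given as CPM, counts scaled to a library total of 1000000. They are compared between tissues for 1 gene, not between genes, because the counts carry no correction for differences between genes, such as transcript length. The study describes MuSeq as enriched for 3′ ends, and how far its counts depend on length was not tested.

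B cells recognize antigen through a membrane immunoglobulin that signals through the CD79 chains encoded by *Cd79a* and *Cd79b*. *Cd22* encodes an inhibitory coreceptor that binds sialic acid, *Ms4a1* the membrane protein CD20, and *Blk* a kinase of the Src family that acts downstream of the receptor. B cells, dendritic cells, and macrophages present peptides to CD4+ T cells on class II molecules, which are built from alpha and beta chains such as those of *H2-Aa*, *H2-Ab1*, and *H2-Eb1* and guided to the peptide-loading compartment by the invariant chain, encoded by *Cd74*. The spleen is a lymphoid organ with B cell follicles, and in young mice it also makes red blood cells.

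In the mouse genome (GRCm38, the mm10 assembly used by the study, with GENCODE M21 genes), the receptor chain genes lie at chr7:24897381-24902197 on the plus strand (*Cd79a*) and chr11:106311341-106314762 on the minus strand (*Cd79b*). *Cd22* lies at chr7:30865402-30880342, *Ms4a1* at chr19:11249675-11266241, and *Blk* at chr14:63372836-63417037, all on the minus strand. The 3 class II chain genes lie close together on chromosome 17, *H2-Ab1* at chr17:34257689-34269419, *H2-Aa* at chr17:34282744-34287823 (minus strand), and *H2-Eb1* at chr17:34305867-34316674. Each spans exons and introns of a protein-coding gene, and no annotated gene that overlaps a member had a count in these libraries.

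Promoter sequences are shown for *H2-Aa* and *H2-Eb1*, since class II chain genes are known to share an upstream regulatory module, and for *Cd79a*, whose promoter is B cell specific. RefSeq promoters of GRCm38.p6, from 250 bases before to 50 after the start, matched 4 members (*H2-Aa*, *H2-Eb1*, *Cd79a*, and *Cd22*) and not *H2-Ab1*, *Cd74*, *Cd79b*, *Ms4a1*, or *Blk*. The 3 shown are printed 5′ to 3′ on the strand of its gene. Capitals mark CTGATTGG, the Y box motif with its inverted CCAAT sequence, in the *H2-Aa* and *H2-Eb1* promoters, and CAGGAAG, a core of Ets factor motifs, in *Cd79a*.
*H2-Aa*, chr17:34287774-34288073, minus strand: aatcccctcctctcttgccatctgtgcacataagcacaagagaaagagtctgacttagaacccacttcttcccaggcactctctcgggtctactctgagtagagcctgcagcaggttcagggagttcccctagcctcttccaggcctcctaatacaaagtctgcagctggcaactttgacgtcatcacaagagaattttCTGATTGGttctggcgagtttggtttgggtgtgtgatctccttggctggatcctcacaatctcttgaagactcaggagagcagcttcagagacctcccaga
*H2-Eb1*, chr17:34305617-34305916, plus strand: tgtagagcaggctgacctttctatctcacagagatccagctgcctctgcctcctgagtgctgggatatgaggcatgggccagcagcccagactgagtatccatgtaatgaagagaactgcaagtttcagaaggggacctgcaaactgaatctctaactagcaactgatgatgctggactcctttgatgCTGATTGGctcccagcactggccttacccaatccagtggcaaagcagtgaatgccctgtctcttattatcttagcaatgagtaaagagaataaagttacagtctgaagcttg
*Cd79a*, chr7:24897247-24897546, plus strand: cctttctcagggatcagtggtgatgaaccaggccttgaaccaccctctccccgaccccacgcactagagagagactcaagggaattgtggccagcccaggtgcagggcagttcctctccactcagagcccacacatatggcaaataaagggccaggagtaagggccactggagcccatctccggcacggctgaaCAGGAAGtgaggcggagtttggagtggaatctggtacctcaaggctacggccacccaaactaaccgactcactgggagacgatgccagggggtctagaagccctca

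The first base of the Y box lay 51 bases before the start of *H2-Aa* and 62 bases before that of *H2-Eb1*. Searched on both strands, CTGATTGG was found in 4.10% of 32851 promoters of the same length and in 2 of the 4 member promoters. The motif TGACG, part of the X2 box of class II promoters, was found in *H2-Aa* alone among the 4, and in 20.8% of all promoters. CAGGAAG stood 56 bases before the RefSeq start of *Cd79a*, which lies 116 bases downstream of the GENCODE start, so by GENCODE the motif lies inside the gene. It was found in 13.3% of all promoters. The octamer ATGCAAAT was in none of the 4 windows and in 1.74% of all promoters. None of the searched motifs overlaps another in the printed windows, and a match is a description of letters only.

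The label of the adipose libraries goes against their markers. *Adipoq*, the adipocyte hormone adiponectin, stood at 1.66 ± 4.06 CPM in the adipose libraries and at 895 CPM on average in the vascular libraries, where it was highest. The vascular libraries carried a marker of their own label as well, since *Eln*, the elastin of artery walls, was highest there (16518 ± 5525 CPM, SD, n = 6), while the smooth muscle genes *Myh11* and *Cnn1* were highest in bladder. The study left vascular out of its later analyses as contaminated. Of 47 pairs of marker gene and tissue with a count, over 44 genes of which 3 were listed for 2 tissues, 36 were highest in the tissue they were listed for. As a check of the genotype labels, *Scx* had 80 counts in 12 of 48 wild-type libraries and 9 counts in 1 of 48 *Scx-/-* libraries. The wild-type counts came from bone, cartilage, cortex, kidney, lung, muscle, stomach, and vascular samples. Spleen had none in either genotype, so the check cannot decide the labels of the spleen libraries. The *Scx-/-* library with counts, labelled cartilage *Scx-/-* replicate 1, stood at 37.2 CPM of *Scx*, above the cartilage wild-type libraries (0, 28.2, and 3.63 CPM). This value goes against its label, rests on 9 counts, and its cause was not tested. Without replicate 1 of *Scx-/-*, no member was called between genotypes in cartilage, and no call of a member between spleen and cartilage was lost.

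*H2-Aa*, *H2-Ab1*, and *H2-Eb1* were listed at 0 in all 96 libraries, the 6 spleen libraries included. No level, fold change, or test can be given for them. The zeros were not particular to class II genes. Among 20448 protein-coding genes with a symbol in the table, 21.99% were at 0 in every library. From 0.5 Mb before to 1 Mb after *H2-Aa*, 91 of 96 coding genes were at 0 (94.8%), and the other 5 held 23 counts together. These edges were chosen after the values were seen. Within 1 Mb on either side of *H2-Aa*, 93 of 107 coding genes were at 0 (86.9%), and the other 14 held 5596 counts, 3840 of them in 1 gene. Genes that nearly every cell uses were among those at 0, such as *Rps18* and *Rps28* of the small ribosomal subunit, *Brd2*, a chromatin reader, *Csnk2b*, a kinase subunit, and *Bag6*, a chaperone. Of 80 cytosolic ribosomal protein genes, 5 were at 0, against a median of 1131 counts per gene. Of these 5, 4 lie on chromosome 17, 2 inside the region (*Rps18* and *Rps28*) and 2 outside it (*Rps10* and *Rpl10a*). The classical class I heavy chains of chromosome 17 were also close to 0, with 1 count for *H2-K1* and 9 for *H2-D1*, while *H2-T22* and *H2-T23*, nonclassical class I genes of the same chromosome, held 520 and 491 counts. Beta-2 microglobulin (*B2m*), their partner chain on chromosome 2, held 41929 counts and stood at 3166 ± 1044 CPM in spleen (SD, n = 6). These genes of the region were chosen after their values were seen, and the cause of the zeros was not tested. The class II results below therefore rest on *Cd74* alone.

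**Figure D1:**
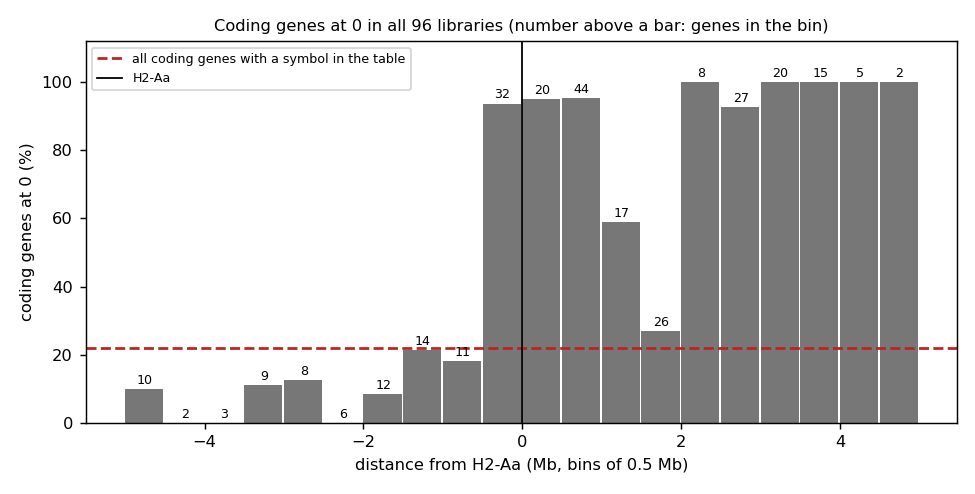
Share of coding genes listed at 0 in all 96 libraries (y axis, percent) by distance from *H2-Aa* along the chromosome (x axis, Mb), in bins of 0.5 Mb, with the number of genes above each bar and the share over all coding genes as a dashed line (21.99%). The 3 bins from 0.5 Mb before to 1 Mb after *H2-Aa* stand at 93.8%, 95%, and 95.5%; the high bars more than 2 Mb beyond it hold 77 genes, of which 46 are olfactory receptor and 12 are H2 genes by symbol.

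All 6 detected members had their highest mean level in spleen. *Cd79b* read 1040, 928, and 427 CPM in the wild-type libraries and 492, 723, and 1074 CPM in the *Scx-/-* libraries. Both genotypes covered nearly the same range. *Ms4a1* read 313, 383, and 84.3 CPM in wild type and 239, 155, and 407 CPM in *Scx-/-*. *Cd74* read 925, 814, and 485 CPM in wild type and 462, 723, and 1156 CPM in *Scx-/-*. For both genes the *Scx-/-* values overlapped the wild-type values. *Cd22* read 94.2, 89.7, and 63.2 CPM in wild type and 85.5, 139, and 314 CPM in *Scx-/-*. Here *Scx-/-* replicates 2 and 3 lay above every wild-type library, and replicate 1 lay among them. *Blk* read 68.5, 124, and 36.9 CPM in wild type and 17.1, 91.1, and 165 CPM in *Scx-/-*. *Cd79a* rested on few reads, with 8, 8, and 0 counts in wild type and 3, 4, and 7 in *Scx-/-*.

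Within spleen, *Scx-/-* replicate 3 was the highest library for all 6 members, wild-type replicate 3 was the lowest for 4, and *Scx-/-* replicate 1 was the lowest for *Blk* and *Cd74*. The order of the other libraries differed between members, and *Scx-/-* replicate 2 was second highest for *Cd22* (139 CPM) and second lowest for *Ms4a1* (155 CPM). *Cd79b* and *Cd74* varied 2.51-fold and 2.50-fold between the highest and lowest library, *Ms4a1* 4.83-fold, *Cd22* 4.96-fold, and *Blk* 9.66-fold. Summed T cell and macrophage markers were also highest in *Scx-/-* replicate 3. The summed level of 14 T cell genes was 694 CPM in *Scx-/-* replicate 3 and 105 CPM in wild-type replicate 3, the highest and the lowest of the 6 libraries. The 13 macrophage genes summed to 2208 CPM in *Scx-/-* replicate 3 and to 1039 and 1059 CPM in *Scx-/-* replicate 1 and wild-type replicate 3. The 10 erythroid genes summed to between 15620 CPM in *Scx-/-* replicate 3 and 72397 CPM in wild-type replicate 2. These genes did not move together. The beta-globin gene *Hbb-bs* averaged 8470 ± 20698 CPM over the libraries, an SD far above its mean. The alpha-globin gene *Hba-a1* was lowest in wild-type replicate 2 (6825 CPM), below *Scx-/-* replicate 3 (10081 CPM). The part of cell composition in these differences was not tested, and in bulk RNA fewer cells of a type and less RNA per cell cannot be told apart.

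**Figure D2:**
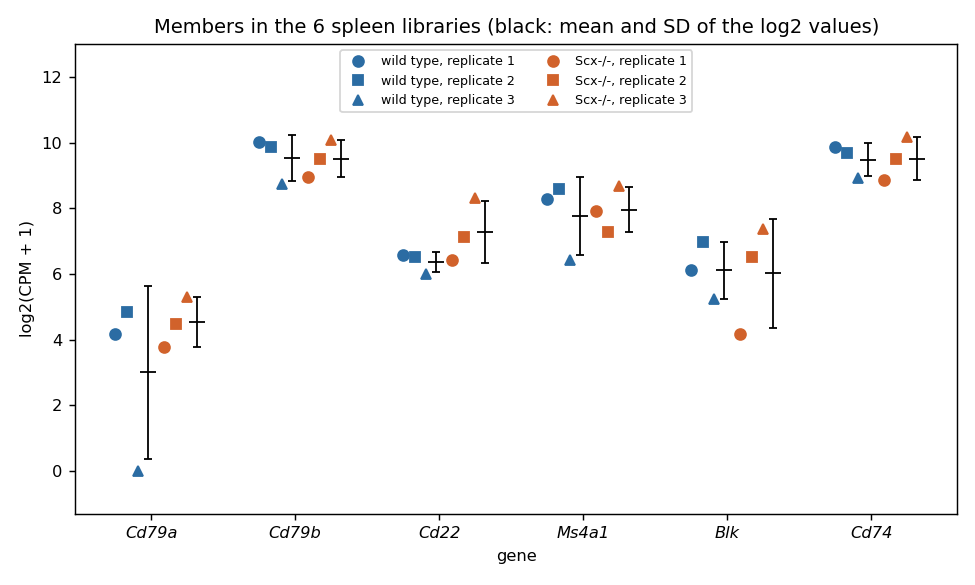
Level of each detected member in the 6 spleen libraries (y axis, log2(CPM + 1)), by gene (x axis) and genotype (color), with replicates as symbols and the mean and SD of the log2 values of each genotype in black. Orange triangles, *Scx-/-* replicate 3, are at the top for each gene, and the genotypes overlap for each gene.

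*Cd74* took a steady part of the members' reads in spleen. It made up 37.6%, 34.4%, and 44.2% of all member counts in the wild-type libraries and 35.3%, 39.0%, and 36.7% in the *Scx-/-* libraries. Pooled over spleen, the share was 37.1% of 3267 counts, with an exact (Clopper-Pearson) 95% interval of 35.5% to 38.8%, which covers counting error only.

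The comparison of genotypes asks whether loss of *Scx* changed gene expression in each tissue. No member was called between genotypes in any tissue. Of 56 tests of a member in a tissue, 0 had an adjusted *p* under 0.05 (quasi-likelihood test of edgeR, Benjamini-Hochberg adjusted over all genes of the tissue), against 0.0914% of all gene tests. In spleen alone, 0 of 6 members passed, against 0.0072% of all genes. The smallest adjusted *p* was 0.614, 1 test had an unadjusted *p* under 0.05 (*Cd74* in adipose), and DESeq2 gave 0 adjusted calls and 1 unadjusted one, for another test (*Cd74* in stomach). In spleen, the log2 fold change (*Scx-/-* over wild type) was 0.08 for *Cd79b* (95% interval -0.89 to 1.04) and 0.22 for *Cd74* (-0.76 to 1.19). For *Cd79b* the mean CPM was lower in *Scx-/-* (763 ± 293) than in wild type (798 ± 327, SD, n = 3 each), and the estimate was -0.07 with library totals as scaling, so its sign depends on the scaling. Both intervals include 0, which does not show that the genotypes were alike. The spleen estimate was 0.16 for *Ms4a1* (-1.03 to 1.35), 0.40 for *Blk* (-1.50 to 2.29), and 0.79 for *Cd79a* (-3.07 to 4.66). *Cd22* had the largest spleen estimate, 1.24 ± 0.78 (SE; adjusted *p* = 0.788, edgeR), from 82.4 ± 16.7 CPM in wild type to 179 ± 119 CPM in *Scx-/-* (SD, n = 3 each). With 1 replicate left out, the estimate for *Cd22* ranged from 0.72 (without *Scx-/-* replicate 3) to 1.57 (without *Scx-/-* replicate 1). In the latter fit it passed the study's thresholds given below (unadjusted *p* = 0.0354, adjusted *p* = 0.794, edgeR). The median over the 6 members in spleen was 0.31, beside -0.18 over all 13894 genes tested. It turned to -0.09 without *Scx-/-* replicate 3, with 2 of 6 members above 0, and to -0.0013 without wild-type replicate 3, with 3 of 6 above 0, so its direction rested on these libraries.

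Under the thresholds of the study's methods, an unadjusted *p* under 0.05 and a change above 2-fold, 1 of 56 member tests passed, against 3.71% of all gene tests. It was *Cd74* in adipose, where 3.24% of all genes passed, with a log2 fold change of 6.49 ± 2.94 (SE; adjusted *p* = 0.614, edgeR). The wild-type adipose libraries had 0 *Cd74* counts, and the *Scx-/-* libraries had 50, 0, and 3. The value therefore rested mostly on *Scx-/-* replicate 1, a library described below. With DESeq2, the tool of the study's methods, the test that passed was instead *Cd74* in stomach, with a log2 fold change of -2.07 (adjusted *p* = 0.9995). With edgeR this stomach test also passed under RLE scaling (-2.05) and with filterByExpr (-2.05).

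*Cd74* was the only member whose genotypes did not overlap in a tissue. This was so in 2 of 56 pairs of member and tissue with a count, against 7.96% of all gene and tissue pairs. In stomach it read 56.8, 105, and 46.2 CPM in wild type and 28.6, 2.69, and 19.5 CPM in *Scx-/-* (log2 fold change -1.97 ± 1.02 SE, adjusted *p* = 0.797, edgeR). In liver it read 10.4, 32.6, and 7.06 CPM in wild type and 1.30, 1.70, and 1.72 CPM in *Scx-/-*, where each *Scx-/-* library had 1 count (-3.01 ± 2.27, adjusted *p* = 0.764, edgeR). In kidney, 2 *Scx-/-* libraries lay below the wild-type range of 45.3 to 69.3 CPM, at 8.94 and 6.14 CPM, and the third lay inside it at 57.8 CPM. None of these differences passed the adjusted test.

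The difference between the genotype effect in spleen and that in another tissue was tested in its own right. It was read for the 30 pairs of member and tissue that had a count in all 4 groups. Of these, 0 passed an adjusted *p* of 0.05 (edgeR, smallest adjusted *p* 0.558), against 0.0153% of all genes. At an unadjusted *p* under 0.05, 7 passed (edgeR). The share of all genes at that threshold is not given, so the 7 cannot be read against it.

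The spleen comparison asks how far each member is restricted to the lymphoid organ among the 16 tissues. The members were higher in spleen in 81 of 90 comparisons of a member between spleen and another tissue, and lower in 0 (edgeR, adjusted *p* under 0.05), against 6.39% of all gene tests that were higher in spleen. All 15 pairs of tissues share the spleen libraries. Every spleen library lay above every library of the other tissue in 70 of the 90 comparisons, against 3.33% of all gene tests. *Cd79b*, *Ms4a1*, and *Cd74* were higher in spleen than in all 15 tissues, *Cd22* and *Blk* in 14, and *Cd79a* in 8. Most of the *Cd79a* calls were lost in at least 1 alternative, as described at the end. The median log2 fold change over the 90 comparisons was 6.38, beside medians over all genes from -0.82 to 1.31 in the 15 pairs of tissues. The calls of *Cd79b* and *Cd74* against muscle were lost without wild-type replicate 1 of both tissues (adjusted *p* = 0.269 and 0.302, edgeR), where the log2 fold changes were 3.50 and 3.08, beside 3.89 and 3.44 with all libraries. Without vascular, 76 of 84 comparisons with spleen were called, and 71 of 78 without adipose and vascular; both alternatives were added after the data were seen.

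The fitted log2 fold change of *Cd79b* was 3.88 ± 0.68 (SE) against adipose and 3.89 ± 0.77 against muscle, which cannot be told apart, and 10.48 against rectum, where no *Cd79b* read was counted. Against the floor of 3 counts over the 6 rectum libraries, *Cd79b* was at least 269-fold higher in spleen. *Ms4a1* was not counted in cortex, heart, intestine, kidney, liver, or stomach, and it was at least 588-fold higher in spleen than in cortex, the most deeply sequenced tissue. *Cd22* was not counted in 10 tissues, and it was at least 252-fold higher in spleen than in cortex. *Blk* was at least 171-fold higher than in cortex.

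**Figure D3:**
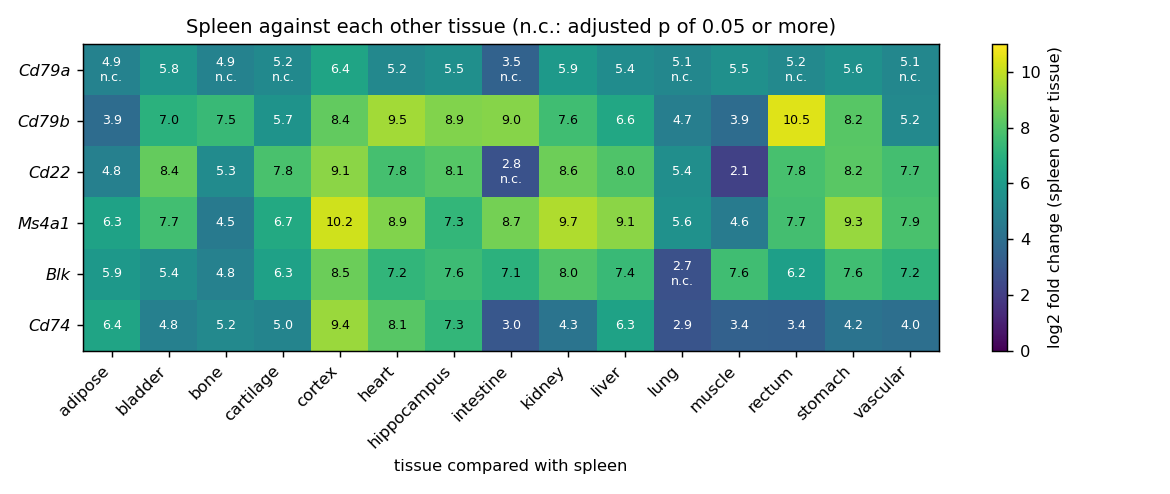
Log2 fold change of spleen over each other tissue (columns) for the 6 detected members (rows), from edgeR with 6 libraries per tissue; color gives the same value, and n.c. marks the 9 comparisons with an adjusted *p* of 0.05 or more. All 90 values are positive; values against a tissue without counts depend on the prior of the model and are no bound.

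The 9 comparisons that were not called rested on few counts. For *Cd79a*, 30 of its 32 counts were in spleen, and the other 2 were in 1 intestine library. Its adjusted *p* was 0.261 against intestine and 0.0569 to 0.149 against adipose, bone, cartilage, lung, rectum, and vascular samples (edgeR). *Cd22* against intestine had an adjusted *p* of 0.0579 (edgeR), with 12, 3, and 2 counts in 3 of the 6 intestine libraries, of which the highest stood at 94.2 CPM. *Blk* against lung had an adjusted *p* of 0.103 (edgeR), with 14 counts in wild-type replicate 1 and 4 in *Scx-/-* replicate 1.

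Ranked by mean CPM, the tissue after spleen was lung for *Cd79b* (63.7 ± 117 CPM, SD, n = 6) and *Blk* (12.3 ± 19.3 CPM), bone for *Ms4a1* (14.5 ± 24.3 CPM), and intestine for *Cd22* (27.1 ± 36.9 CPM), *Cd79a* (3.55 ± 8.69 CPM), and *Cd74* (150 ± 72.8 CPM). Except for *Cd74*, each of these SDs was larger than the mean. An exact two-sided permutation test of log2(CPM + 1) between neighbors in this order gave an unadjusted *p* under 0.05 in 6 of 90 pairs, and all 6 were spleen against the next tissue. For *Cd79b*, *Ms4a1*, and *Cd74* the exact *p* was 0.00217, the smallest that 6 against 6 libraries can give (adjusted *p* = 0.0649 over the 90 pairs). Below spleen, no neighbors in the order differed beyond their spread (smallest exact *p* 0.0693, adjusted *p* = 0.891). The order of the other 15 tissues is therefore a description.

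**Figure D4:**
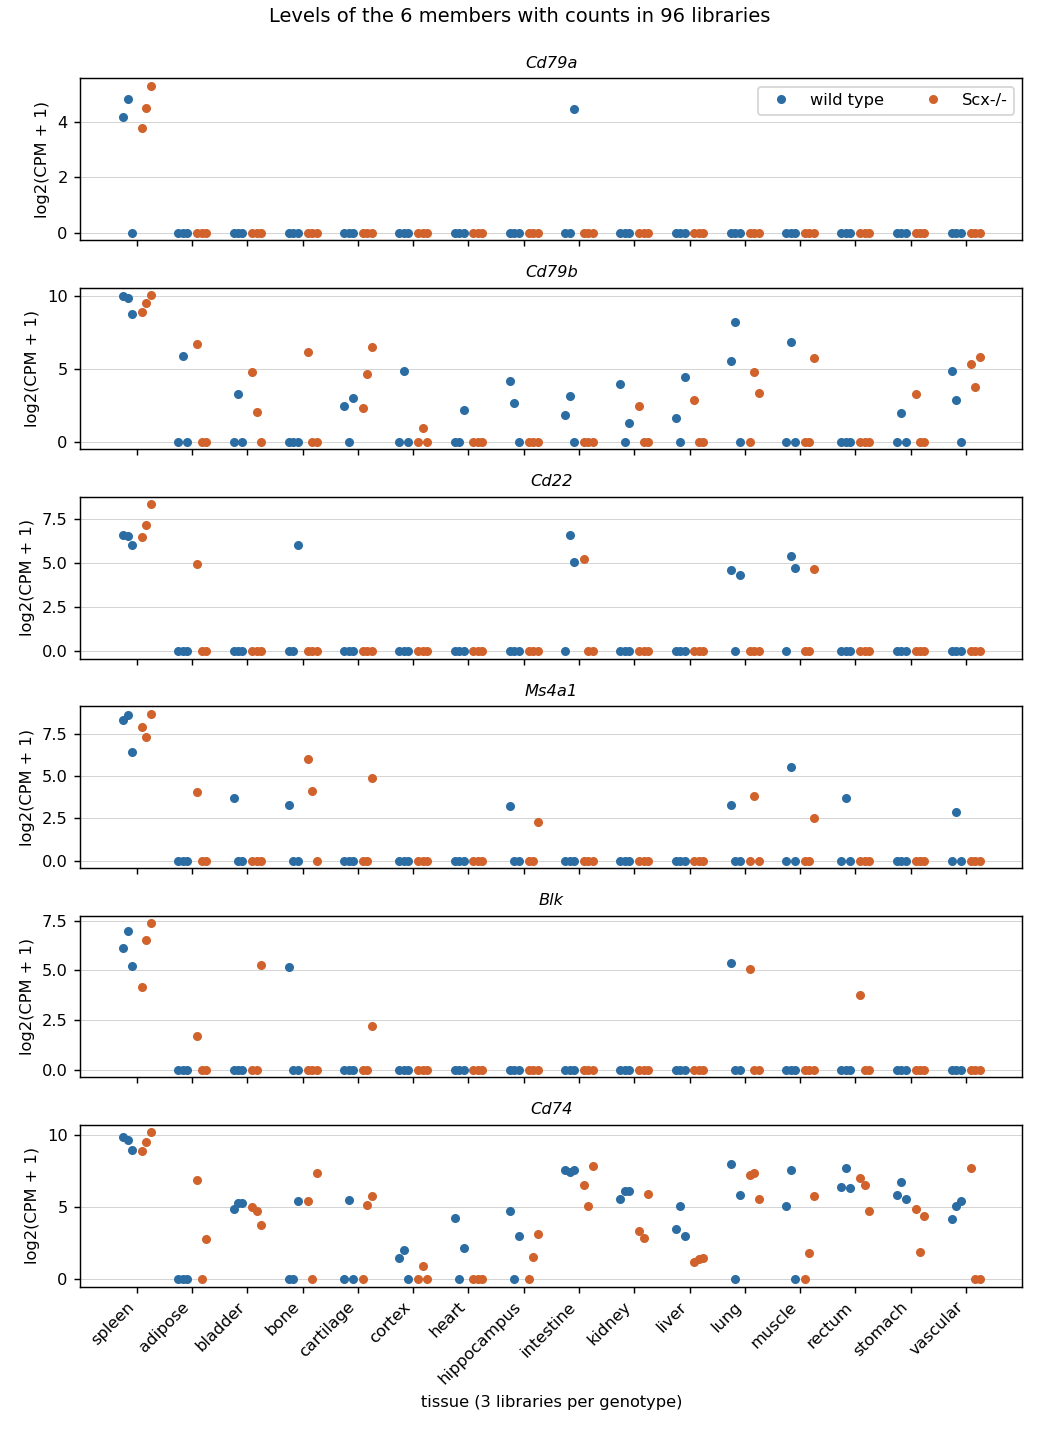
Level of each detected member in every library (y axis, log2(CPM + 1)) by tissue (x axis), with 3 wild-type and 3 *Scx-/-* points per tissue. Spleen stands above all other tissues for *Cd79b*, *Ms4a1*, and *Cd74* in every library. Outside spleen, B cell genes sit at 0 in most libraries with single points far above. *Cd74* has a count in every library of 6 of the other 15 tissues.

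Outside spleen the 5 B cell members held 623 counts in 50 of 90 libraries, and 40 libraries had none. The counts were gathered in single libraries. Of 75 pairs of B cell member and tissue outside spleen, 35 had a count. In 29 of the 35, 1 library held more than 50% of the tissue's counts, in 15 it held every count, and in 0 did every library of the tissue have a count. In 6 of the 35 the tissue held a single count, which fixes the share at 100%. Of the 29 pairs with at least 2 counts, 1 library held more than 50% in 23 and every count in 9. Cortex is an example, with 18 of 19 *Cd79b* counts in wild-type replicate 2. A lung library of 46732 counts, wild-type replicate 2, gave the highest *Cd79b* value outside spleen, 300 CPM from 14 counts, with 0 *Cd74* counts.

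In 5 of the 90 libraries, at least 3 of the 5 B cell members were counted. Muscle wild-type replicate 2 had 98 *Cd79b*, 35 *Cd22*, 39 *Ms4a1*, and 161 *Cd74* counts. Muscle *Scx-/-* replicate 3 had 45 *Cd79b*, 21 *Cd22*, 4 *Ms4a1*, and 46 *Cd74* counts. Adipose *Scx-/-* replicate 1 had 45 *Cd79b*, 13 *Cd22*, 7 *Ms4a1*, 1 *Blk*, and 50 *Cd74* counts. These 3 libraries also held 543 of the 571 counts of *Glycam1*, which encodes a mucin-like glycoprotein made by the high endothelial venules of lymph nodes and also by mammary gland. They had 120, 194, and 229 *Glycam1* counts, no other library had more than 8, and spleen had 0. They held 49.4% of the B cell member counts outside spleen and 6.79% of the total counts there.

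The remaining libraries with at least 3 B cell members had no *Glycam1* count. Lung wild-type replicate 1 had 16 *Cd79b*, 8 *Cd22*, 3 *Ms4a1*, 14 *Blk*, and 87 *Cd74* counts, and cartilage *Scx-/-* replicate 3 had 25 *Cd79b*, 8 *Ms4a1*, 1 *Blk*, and 15 *Cd74* counts. In the 5 libraries, 9 to 21 of 24 other B cell genes were counted, against a median of 5 and at most 12 in the other 85. In level these genes summed to 312.9 to 991.4 CPM, against a median of 299.9 CPM and up to 4031 CPM in the others. The 14 T cell genes summed to 43.5 to 289 CPM in the 5 libraries, against a median of 8.07 CPM and at most 216 CPM in the others. Both ranges overlapped those of the others. So did those for macrophage genes (122 to 1228 CPM, median of the others 330), dendritic cell genes (10.9 to 132 CPM, median 19.5), and erythroid genes (276 to 5079 CPM, median 630). Genes of lymphoid stroma and homing, which include *Glycam1*, summed to 0 to 549 CPM, against a median of 0 and at most 273 CPM in the others. The 5 libraries held 276018 to 871531 counts, and the others a median of 245271, so depth differed as well. The part of lymphoid tissue in these values was not tested.

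Without the 3 *Glycam1* libraries, the mean of *Cd79b* in muscle was 0 in the 4 remaining libraries, down from 27.4 ± 46.6 CPM, and *Cd74* was 8.87 ± 16.1 CPM, down from 45.5 ± 71.5 CPM. In adipose, 5 libraries remained, where *Cd79b* averaged 11.9 ± 26.7 CPM and *Cd74* 1.20 ± 2.69 CPM. This alternative was added after the data were seen, and with it 80 of 90 comparisons with spleen were called.

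*Cd74* was counted in 66 of the 90 libraries outside spleen, and 27 of these 66 had no count of any B cell member. In contrast to the B cell genes, it was present in all 6 libraries of bladder, intestine, kidney, liver, rectum, and stomach. In 7 of the 15 tissues outside spleen, 1 library held more than 50% of its counts. *Cd74* also held more counts outside spleen than the B cell members, 1113 beside 623. In intestine it read 186, 173, and 192 CPM in wild type and 91.0, 33.3, and 226 CPM in *Scx-/-*. The wild-type libraries lay close together, and the *Scx-/-* libraries rested on 5, 1, and 6 counts. In rectum it read 82.8, 204, and 80.4 CPM in wild type and 127, 91.0, and 25.5 CPM in *Scx-/-*. Rectum had 78 *Cd74* counts, and its B cell members had 2. The pooled *Cd74* share of member counts was 97.5% in rectum (exact 95% interval 91.3% to 99.7%), 93.5% in stomach (87.1% to 97.4%), 90.6% in kidney (85.5% to 94.3%), and 85.5% in intestine (78.7% to 90.8%). These shares lie far above the 34.4% to 44.2% of the spleen libraries, with no test because the share is a score over the members. Among the remaining tissues the share was lowest in cortex (24.0% of 25 counts, exact 95% interval 9.36% to 45.1%) and bone (31.1% of 61 counts, 19.9% to 44.3%), whose intervals both include the pooled spleen share. These intervals cover counting error only. Single libraries ranged from 10% to 100% in cortex, where wild-type replicate 2 held 18 of the 19 B cell counts, and from 0% to 100% in bone. In lung the share was 68.3%, with single libraries from 0% to 83.3%. In muscle it was 45.3% and in adipose 42.4%, and in both tissues single libraries ranged from 0% to 100%. Spleen was higher than every other tissue in *Cd74*, by a log2 fold change of 2.86 against lung, 3.00 against intestine, and 3.39 against rectum (edgeR, adjusted *p* = 4.96e-07, 3.99e-05, and 5.77e-09). The largest difference was against cortex, 9.37, where 6 counts were found among 6324607.

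**Figure D5:**
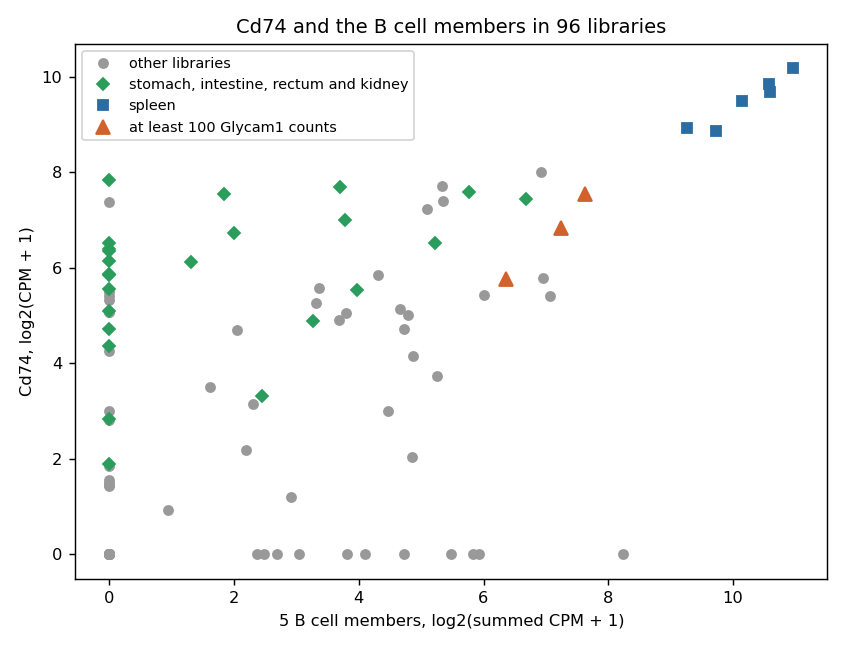
*Cd74* (y axis, log2(CPM + 1)) against the summed level of the 5 B cell members (x axis, log2(summed CPM + 1)), 1 point per library, with spleen, the libraries with at least 100 *Glycam1* counts, and stomach, intestine, rectum, and kidney marked. Spleen libraries are high on both axes, and many stomach, intestine, rectum, and kidney libraries sit at 0 on the x axis with *Cd74* well above 0.

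Counts below are of tests of a gene between spleen and another tissue, higher or lower in spleen at an adjusted *p* under 0.05 (edgeR), beside 6.39% higher over all genes. For each list the gene with the highest mean CPM in spleen is named. CPM is not corrected for differences between genes, such as transcript length, so this does not rank transcript abundance between genes. Of the 24 other B cell genes, 23 had a count, and 260 of 345 tests were higher and 4 lower (median log2 fold change 5.76). The gene with the highest CPM was *Ly6d*, a surface protein of early B cells and also of squamous epithelium, at 614 ± 273 CPM. For the 18 genes of B cell receptor signaling, 140 of 270 tests were higher and 5 lower, and *Cd81*, a coreceptor subunit used by many cell types, had the highest CPM at 319 ± 103. Among 12 genes of pro-B and pre-B cells, 26 of 151 tests were higher and 3 lower, with the highest CPM for *Vpreb3* at 143 ± 86.1 CPM. Of 10 plasma cell genes, 54 of 138 tests were higher and 12 lower, and *Pou2af1*, a B cell coactivator, stood at 165 ± 80.8 CPM. The immunoglobulin rows differed in kind. *Igkc*, the kappa constant region, had 682 counts in spleen, while *Ighm* and *Ighd*, the mu and delta constant regions of membrane immunoglobulin, had 9 and 2. These 3 genes were chosen after their values were seen.

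The class II pathway list had 19 genes in the table, of which 10 had a count. Of the 9 at 0, 7 are H2 genes of the region described above (*H2-Ea-ps* was placed there through its current RefSeq symbol, *H2-Ea*), and the other 2 are *Ifi30*, a lysosomal thiol reductase, and *Cd80*, a costimulatory ligand. Among the 10 with counts, 57 of 150 tests were higher in spleen and 7 lower (median log2 fold change 2.42). *Ctss*, the protease that trims the invariant chain, had the highest CPM in spleen, 411 ± 188. *Ciita*, the master coactivator of class II transcription, had 131 of its 240 counts in spleen, at 86.7 ± 58.0 CPM; it was chosen after its values were seen.

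Markers of other cells in spleen followed. For 12 dendritic cell markers, 23 of 153 tests were higher in spleen and 0 lower, with the highest CPM for *Ccr7* (69.5 ± 41.1 CPM), a chemokine receptor that T and B cells also use. For macrophage markers, 86 of 182 tests were higher and 2 lower, with the highest CPM for lysozyme 2 (*Lyz2*, 305 ± 144 CPM). For T cell markers, 83 of 180 were higher and 0 lower, with the highest CPM for *Cd3e* (93.3 ± 53.0 CPM), a chain of the T cell receptor complex. For erythroid markers, 102 of 150 were higher and 0 lower, with the highest CPM for alpha-globin (*Hba-a1*, 11969 ± 4641 CPM). Among 6 genes of lymphoid stroma and homing, 17 of 55 tests were higher and 2 lower, with the highest CPM for *Cxcl13* (214 ± 179 CPM), the chemokine of B cell follicles.

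Between genotypes, none of these lists had a called gene in spleen. In spleen the list medians of the log2 fold change were -0.39 for other B cell genes, -0.03 for B cell receptor signaling, -0.47 for pro-B and pre-B cells, -0.27 for plasma cells, and 0.44 for the class II pathway, beside -0.18 over all genes. They were 0.80 for dendritic cell, 0.37 for macrophage, 0.05 for T cell, and -0.29 for erythroid markers, and 0.10 for lymphoid stroma and homing. Over the 16 tissues, 1 of 220 tests of other B cell genes passed (edgeR, adjusted *p* under 0.05), beside 0.0914% of all gene tests. It was *Ly6d* in rectum, at 0 in the 3 wild-type libraries and at 1842, 615, and 322 CPM in *Scx-/-* (adjusted *p* = 3.94e-13, edgeR), and it passed with each replicate left out. The 5 B cell members in rectum had 2 counts in all. Of 134 erythroid tests, 1 rose and 4 fell, a larger share than the 0.0914% of all gene tests. *Hba-a1* rose in cartilage (log2 fold change 1.76), a call lost in 4 of 6 fits with a replicate left out (wild-type replicate 1 or 2, or *Scx-/-* replicate 2 or 3; log2 fold changes 1.58, 1.46, 1.74, and 1.08), and *Hbb-bs*, a beta-globin gene, fell, with log2 fold changes of -5.73 in heart, -9.60 in muscle, -8.25 in rectum, and -8.39 in stomach. In each of these 4 tissues the fall rested on wild-type replicate 2, which read 4002, 446, 794, and 296 CPM, while no other library of these tissues was above 16.2 CPM. Without it the estimate was 0.50 in heart and -2.36 in stomach (adjusted *p* = 0.992 and 0.873, edgeR), and in muscle and rectum no *Hbb-bs* count remained. With another replicate left out the sign held, and the call was lost in 3 of 5 fits in heart and stomach (each *Scx-/-* replicate), 2 in rectum (*Scx-/-* replicate 2 or 3), and 1 in muscle (wild-type replicate 1). The sources do not say whether these 4 libraries came from 1 mouse, so the 4 falls cannot be counted as independent. No gene of the other 8 lists was called between genotypes in any tissue.

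Likeness was measured as Pearson's *r* of log2(CPM + 1) over the 96 libraries, among 14244 genes with at least 100 counts. The libraries share tissue, depth, and possibly mice, so *r* is a description. The genes most like the summed B cell members were *Mzb1* (*r* = 0.70), a chaperone of the marginal zone B cell and plasma cell endoplasmic reticulum, *Iglc2* (0.70), a lambda constant region, *Tnfrsf13c* (0.69), the BAFF receptor, and *Pou2af1* (0.68). Without the spleen libraries *r* was 0.50 for *Mzb1* and 0.43 to 0.44 for *Iglc2*, *Tnfrsf13c*, and *Pou2af1*. The genes most like *Cd74* were *Samhd1* (0.61), a nucleotide hydrolase, *Serinc3* (0.59), *B2m* (0.58), *Arhgap27* (0.57), and *Irf8* (0.57), a transcription factor of B cells and dendritic cells. Without the spleen libraries, the top 5 for *Cd74* included *Tspan8* (0.60), *Arhgap27* (0.57), and *Epcam* (0.57), the epithelial cell adhesion molecule.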

How the data were processed

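Total RNA of 16 tissues was sequenced in 96 libraries, 3 per tissue and genotype. Per the labels and the study's methods, the authors reverse transcribed with SuperScript II, built libraries with Nextera XT, aligned the reads to the mm10 assembly by Bowtie2 (default settings), and obtained a count for each gene from HTSeq. The deposited values are raw counts, whole numbers per gene symbol. For tool versions, annotation, and strand setting, nothing is given in the sources used here. Without stated molecular identifiers, intervals and floors cover counting error only.

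CPM was computed on library totals. Tests used edgeR 4.0.16 (TMM, robust glmQLFit and glmQLFTest, R 4.3.3) on all genes not at 0 in every library of the fit, with Benjamini-Hochberg adjustment over all genes of that fit. Genotypes were compared within each tissue, and spleen was compared with each other tissue in fits of 12 libraries and 4 groups. Neighboring tissues were compared by exact permutation in scipy 1.17.1. The edgeR script was tested on simulated data for spleen between genotypes and spleen against lung. A floor is 3 counts over the group. Replicates differed beyond counting noise (chi-square per degree of freedom at least 6.93), and same-numbered replicates of both genotypes did not deviate together in any of 16 tissues (correlations -0.23 to 0.12).

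The members and gene lists were chosen with earlier results of these data known. Named genes were all members, the gene of each list with the highest CPM in spleen, list genes called between genotypes, and the 5 genes most like the B cell members and *Cd74*, of which 1 is not reported here. Alternatives were RLE and total scaling, filterByExpr, the replicate block, DESeq2 1.42.0, each replicate left out, and libraries under 50000 counts left out; leaving out 3 libraries rich in *Glycam1*, vascular, or adipose and vascular was added after seeing the data.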

Additional observations from a re-analysis of the deposited data

How the results depend on the processing

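No member reached an adjusted *p* under 0.05 between genotypes under any alternative, and the counts of 0 held with edgeR and DESeq2. At the study's thresholds the count of 1 became 3 with RLE scaling, 2 with library totals as scaling, 2 with filterByExpr, and 0 with the replicate block, and leaving out 1 replicate gave 0 to 6. The 6 came without *Scx-/-* replicate 3, with 4 of them in muscle, where that library is rich in *Glycam1*. Wild-type replicate 2 of muscle is also rich in *Glycam1*. It stayed in the fit and held all remaining *Cd79b* and *Ms4a1* counts. The other calls were *Cd74* in adipose and kidney (log2 fold changes 6.81 and -3.05). Same-numbered replicates of both genotypes did not deviate together within a tissue; whether a number marks 1 mouse across tissues was not tested. The block changed no adjusted call between genotypes.

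Of the 90 comparisons with spleen, 73 to 82 were called under the alternatives that keep all replicates and tissues and 70 to 78 with 1 replicate left out, and 0 were lower in spleen under any of them. With tissues left out, 76 of 84 were called without vascular and 71 of 78 without adipose and vascular. The replicate block gave 79, and filterByExpr gave 73 of the 76 it tested. *Cd79b* against muscle lost its call without wild-type replicate 1 (adjusted *p* = 0.269, edgeR) and with RLE scaling (0.0588), library totals (0.0516), filterByExpr (0.0599), and without libraries under 50000 counts (0.177). *Cd74* against muscle lost it without wild-type replicate 1 (0.302), without libraries under 50000 counts (0.202), and with filterByExpr (0.0658). In the fits that lost the call, the log2 fold change was 3.50 to 4.74 for *Cd79b*, beside 3.89 in the main fit. For *Cd74* it was 3.08 to 3.47, beside 3.44. Calls were also lost in at least 1 setting for *Cd22* against muscle and adipose, *Blk* against adipose and bone, and *Cd79a* against 6 of its 8 tissues. For *Cd79a* these were bladder, heart, hippocampus, liver, muscle, and stomach. The replicate block ended its calls against heart and liver (adjusted *p* = 0.0939 and 0.0517, edgeR). The cause was not tested. Library totals shifted the median of all genes by -0.33 to 0.73 on the log2 scale, and RLE by -0.11 to 0.32.

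The difference of genotype effects had 0 calls, and 0 to 1 with a replicate left out. The 1 was *Cd79b* in cortex without wild-type replicate 1 (adjusted *p* = 0.00500, edgeR). The order of tissues had 0 adjusted differences under each alternative; within 1 genotype the exact test cannot go below 0.1. The mean *Cd74* share in spleen was 37.9%, and 36.6% to 38.6% with a library left out. The share without *Cd74* gives no value, since the other class II members are at 0. Of the 5 genes most like the B cell members, 2 remained among the top 5 at a pseudocount of 10 CPM and 2 without spleen; for *Cd74*, 2 and 1 remained. *Cd79a* had the fewest spleen counts of the detected members, 30, beside 1281 for *Cd79b* in the same libraries. The reason was not tested.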
